A study of Mus musculus with 2 samples.

Results

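The Hox genes of the 4 mouse clusters were followed in 2 RNA sequencing libraries from mouse forelimbs at E13.5, by taking every symbol that consists of Hox, a cluster letter from a to d and a paralogue number. This gave 39 genes of 22096 symbols in the files: 11 of Hoxa, 10 of Hoxb, 9 of Hoxc and 9 of Hoxd. The samples were ScxGFP-positive cells and ScxGFP-negative cells, sorted by flow cytometry from embryos of mixed strain background that carry a green fluorescent reporter driven by regulatory sequence of *Scx*, the gene of the tendon and ligament factor scleraxis. Each sample pooled 6 forelimbs (3 pairs) and each population gave 1 library, so no difference below has a replicate check and none has a test. Both populations were defined by the reporter, not by cell type, and together they need not hold every cell of the limb.

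Hox genes encode homeodomain transcription factors and lie in clusters in which the order of the genes along the chromosome matches the order of their expression domains along the body and limb. Genes of the same paralogue number in different clusters are relatives by duplication. In the limb, genes of groups 9 and 10 are known for their part in the upper arm, those of group 11 in the forearm and those of group 13 in the hand, and genes of the Hoxa and Hoxd clusters carry most of this function in the forelimb. *Hoxa11* and *Hoxd11* are also known in the connective tissue and tendons of the mouse forearm.

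Values are FPKM as deposited, that is, fragments per kilobase of transcript and per unit of mapped fragments, added up over all transcripts of a symbol. A log2 ratio is log2((FPKM positive + 1) / (FPKM negative + 1)), so it is positive where the gene was higher in ScxGFP-positive cells, and it understates the difference of genes at low levels. A percentage given as a share of the negative value is the FPKM in positive cells over that in negative cells, without the added 1. A gene was called measured with at least 1 FPKM in either library, and 12096 genes were. Their median log2 ratio was −0.27.

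The upstream sequences of 4 of these genes are shown because the results turn on them: *Hoxa13* and *Hoxd13*, the most abundant members, which lay on opposite sides, and *Hoxa11* and *Hoxd9*, which had the highest ratio of their clusters. Each run holds the 250 bases before the RefSeq transcript start, 5′ to 3′ in the direction of the gene, of build GRCm38.p6. They lie at chr6:52260881-52261130 on the minus strand (*Hoxa13*), chr2:74667975-74668224 on the plus strand (*Hoxd13*), chr6:52245811-52246060 on the minus strand (*Hoxa11*) and chr2:74697513-74697762 on the plus strand (*Hoxd9*). Capitals mark matches, on either strand, to CCAAT, the binding site of a common promoter factor, or to the TATA box, searched as TATAAA; the overlapping matches in *Hoxd13* are that motif read on both strands.
Hoxa13: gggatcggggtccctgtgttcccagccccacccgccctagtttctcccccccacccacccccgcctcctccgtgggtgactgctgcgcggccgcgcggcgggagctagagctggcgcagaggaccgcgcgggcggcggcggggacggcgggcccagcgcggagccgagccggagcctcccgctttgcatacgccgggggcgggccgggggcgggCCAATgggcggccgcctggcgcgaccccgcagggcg
Hoxd13: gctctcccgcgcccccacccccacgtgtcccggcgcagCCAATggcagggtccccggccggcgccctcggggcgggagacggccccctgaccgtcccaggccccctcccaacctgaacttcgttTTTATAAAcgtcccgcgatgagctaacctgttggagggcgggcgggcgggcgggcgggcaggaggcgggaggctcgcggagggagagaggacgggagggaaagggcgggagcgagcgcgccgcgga
Hoxa11: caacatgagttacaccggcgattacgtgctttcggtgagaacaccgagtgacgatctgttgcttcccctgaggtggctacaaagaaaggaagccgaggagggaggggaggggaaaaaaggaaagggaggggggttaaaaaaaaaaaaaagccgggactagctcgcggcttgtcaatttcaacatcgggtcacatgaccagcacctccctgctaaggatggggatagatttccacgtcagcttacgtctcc
Hoxd9: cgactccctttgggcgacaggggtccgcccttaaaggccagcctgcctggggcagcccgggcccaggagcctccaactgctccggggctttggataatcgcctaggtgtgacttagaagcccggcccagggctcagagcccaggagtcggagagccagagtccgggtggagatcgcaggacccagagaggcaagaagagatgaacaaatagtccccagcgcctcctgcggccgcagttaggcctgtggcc

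The *Hoxa13* window was 80% G and C with 35 CpG dinucleotides, and the *Hoxd13* window 74.4% with 31. *Hoxa11* and *Hoxd9* had 13 CpG each, at 52% and 65.2% G and C. Among the windows shown, those of *Hoxa13* and *Hoxd13* were thus the richer in CpG. A window was listed for 22 of the 39 genes (24 windows), with a median of 12.5 CpG, against 6 over 32841 windows of all genes. CCAAT occurred in 14 of the 24 Hox windows (58.3%) and in 33.9% of all windows, and TATAAA in 4 (16.7%) and in 12.4% of all. TGATNNAT, which Pbx and Hox proteins bind together, occurred in 4 (16.7%) against 7.69% of all windows, TGACAG, bound by Meis proteins, in 2 (8.33%) against 15.9%, and TTTACGA, bound by homeodomains of the posterior type, in 1 (4.17%) against 0.478%. All motifs were searched on both strands. None of these last 3 motifs occurred in the 4 windows shown, and a match or its absence describes only these letters.

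Posterior genes of the Hoxa and Hoxd clusters made up most of the Hox transcripts of both libraries. Summed over all 39 genes, Hox transcripts reached 167 FPKM in positive cells, against 153 FPKM in negative cells. Genes of groups 9 to 13 made up most of both sums: groups 9 to 11 held 34.5% in positive cells and 20.4% in negative cells, and groups 12 and 13 held 55.7% and 68.5%. The Hoxd cluster held 61.4% of Hox FPKM in positive cells against 34.8% in negative cells, and the Hoxa cluster 34.01% against 51.7%. Hoxc held 3.28% against 10.6% and Hoxb 1.33% against 2.88%. These shares are formed within a library and do not depend on how the libraries are scaled to each other.

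**Figure D1:**
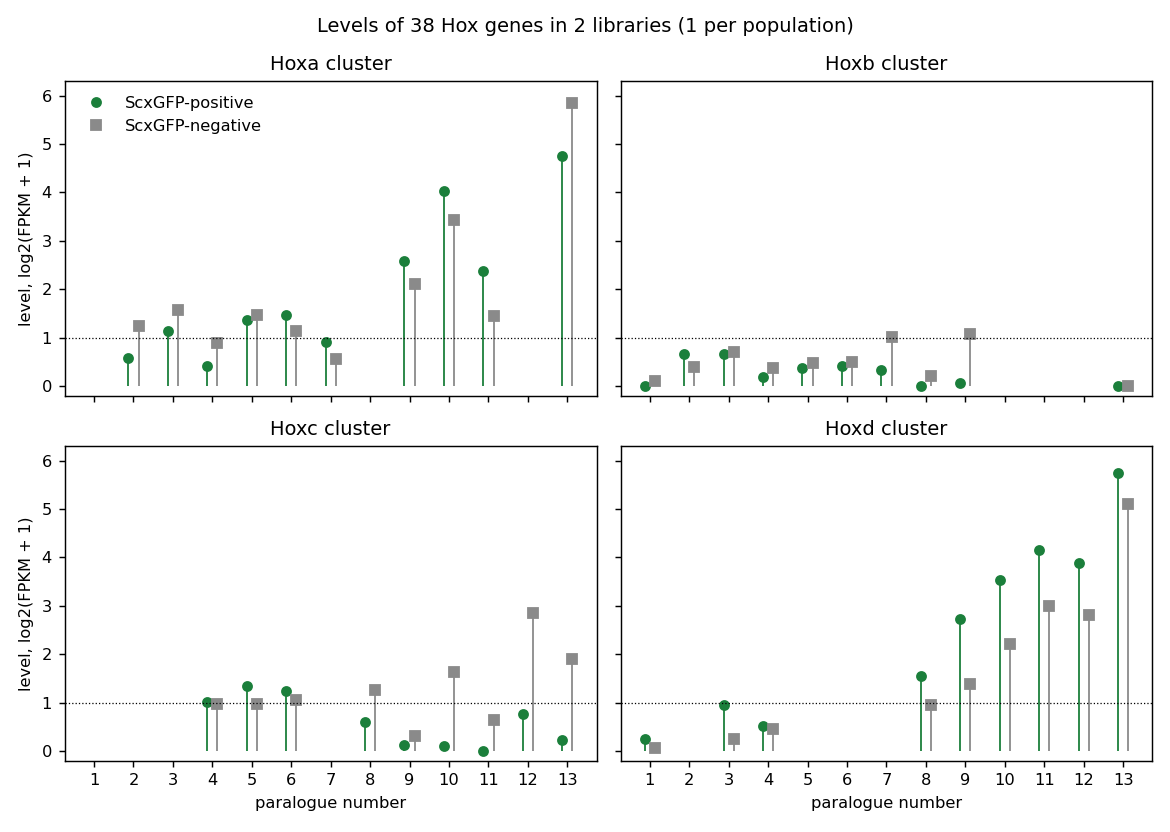
Level of 38 Hox genes by cluster (panels) and paralogue number (horizontal axis), as log2(FPKM + 1), in the ScxGFP-positive library (green circles) and the ScxGFP-negative library (grey squares). The dotted line is 1 FPKM. Posterior Hoxd genes stand higher in positive cells, posterior Hoxc genes and *Hoxa13* in negative cells.

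Of the 39 genes, 23 were measured: 13 had at least 1 FPKM in both libraries, 3 in positive cells alone and 7 in negative cells alone. Over all genes, 10752 reached 1 FPKM in positive cells, against 11497 in negative cells. The larger count on the negative side was thus not particular to Hox genes. At least 2-fold higher in positive cells were 4 genes, *Hoxd9*, *Hoxd10*, *Hoxd11* and *Hoxd12*, and at least 2-fold lower were 5, *Hoxc12*, *Hoxc13*, *Hoxc10*, *Hoxa13* and *Hoxb9*. This is 17.4% and 21.7% of the measured members, beside a background of 4.03% higher and 9.98% lower among all measured genes. Over all 39 members the shares are 10.3% and 12.8%, and over all 22090 genes without the filter 2.21% and 5.46%. The median log2 ratio was 0.19 over the measured members and −0.04 over all 39. A member that was measured only through the library in which it is high had to differ, so these counts describe the genes and support nothing further. Of the 5 lower genes, *Hoxb9*, *Hoxc10*, *Hoxc12* and *Hoxc13* passed 1 FPKM only in negative cells. *Hoxa13* and the 4 higher genes passed it in both libraries. The number of higher genes depended on how the values were treated. It was 0 with the median ratio of the limb mesenchyme genes *Prrx1*, *Prrx2*, *Twist1*, *Tbx5* and *Pdgfra* set to 1, where 2.59% of all measured genes were higher. That median was the ratio of *Prrx1* (136% of the negative value), and the 5 genes ran from 54.8% (*Prrx2*) to 418% (*Pdgfra*). The number was 5 with the median ratio of all genes set to 1, where 5.83% of all measured genes were higher. With TPM, in which each library sums to the same total, it was 11 of 35 measured Hox genes, beside 10.6% of all measured genes. There 1 TPM corresponds to 0.162 FPKM in positive cells and 0.220 FPKM in negative cells, so that both the minimum and the pseudocount are smaller as well.

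**Figure D2:**
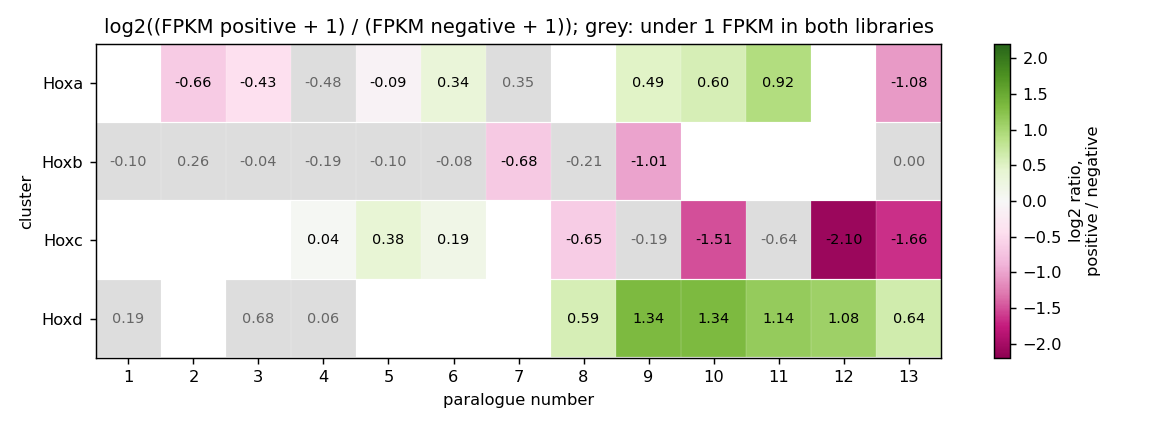
The log2 ratio of ScxGFP-positive over ScxGFP-negative cells for 38 Hox genes, arranged by cluster (rows) and paralogue number (columns). Green is higher in positive cells, pink is lower, grey cells are genes under 1 FPKM in both libraries, and white positions hold no value. The Hoxd row is green from group 8 to 13, the measured Hoxc genes are pink from group 8 on with *Hoxc9* and *Hoxc11* grey, and the measured Hoxa genes are green from group 6 to 11 with *Hoxa7* grey and *Hoxa13* pink.

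In the Hoxd cluster (mm9 chr2:74506367-74603199), the genes from *Hoxd8* to *Hoxd13* were higher in ScxGFP-positive cells. *Hoxd9*, which acts with its paralogues in the upper arm, stood at 5.64 FPKM in positive cells, against 1.63 FPKM in negative cells, and *Hoxd10* at 10.6 against 3.61. *Hoxd11*, a regulator of forearm length, stood at 16.7 against 7.03 FPKM. *Hoxd12*, a gene of the late, distal phase of limb expression, stood at 13.9 against 6.03 FPKM. The log2 ratios of these 4 genes were 1.34, 1.34, 1.14 and 1.08, each above the median of all genes by 1.35 to 1.60, and *Hoxd9* ranked 317 of 12096 from the top. Among measured genes within 0.5 of the mean log2 level of *Hoxd11*, 2153 genes, the median ratio was −0.27 and 4.13% were at least 2-fold higher. Of the alternatives tried, 6 could move a ratio across 0, namely 5 other scalings and the removal of the length trend. The 6 genes from *Hoxd8* to *Hoxd13* were higher in positive cells under each of these. *Hoxd9* to *Hoxd12* were under 2-fold with the median ratio of limb mesenchyme genes set to 1 (0.97, 0.94, 0.73 and 0.67).

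*Hoxd13*, the end gene of the cluster and a regulator of digits, was the most abundant Hox gene in positive cells, at 52.4 FPKM, against 33.3 FPKM in negative cells. Its log2 ratio of 0.64 was under 2-fold; it stood at 157% of the negative value, on about 296753 and 197193 aligned bases. *Hoxd8* was at 1.93 against 0.947 FPKM, a ratio of 0.59. From *Hoxd9* toward *Hoxd13* the share of the negative value became smaller step by step, at 347%, 295%, 238%, 230% and 157%. Since the genes share 2 libraries, this order is a description of those libraries. On the log2 scale with the pseudocount, *Hoxd9* and *Hoxd10* were level. *Hoxd9* was above *Hoxd10* with TPM (2.10 and 1.94), but below it with the median ratio of all genes set to 1 (1.63 and 1.65), with equal upper quartiles (1.59 and 1.60), with the length trend removed (1.63 and 1.70) and with a pseudocount of 5 (0.68 and 0.86).

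At the other end of the cluster the genes were near the floor. *Hoxd3* stood at 0.924 FPKM in positive cells, against 0.197 FPKM in negative cells, *Hoxd1* at 0.193 against 0.0487 and *Hoxd4* at 0.430 against 0.367. None passed 1 FPKM. The *Hoxd3* locus spans that of *Hoxd4*, so the division of reads between them is uncertain. The negative value of *Hoxd1* rests on about 217 aligned bases. Beside the cluster, *Evx2*, a homeobox gene that shares limb enhancers with *Hoxd13*, stood at 1.86 FPKM in positive cells, against 1.21 FPKM in negative cells, 154% of the negative value. *1700109F18Rik* (*Hoxd3os1* in RefSeq), a noncoding RNA whose locus overlaps that of *Hoxd3*, was at 0.723 against 0.427 FPKM, and the libraries do not mark strand.

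**Figure D3:**
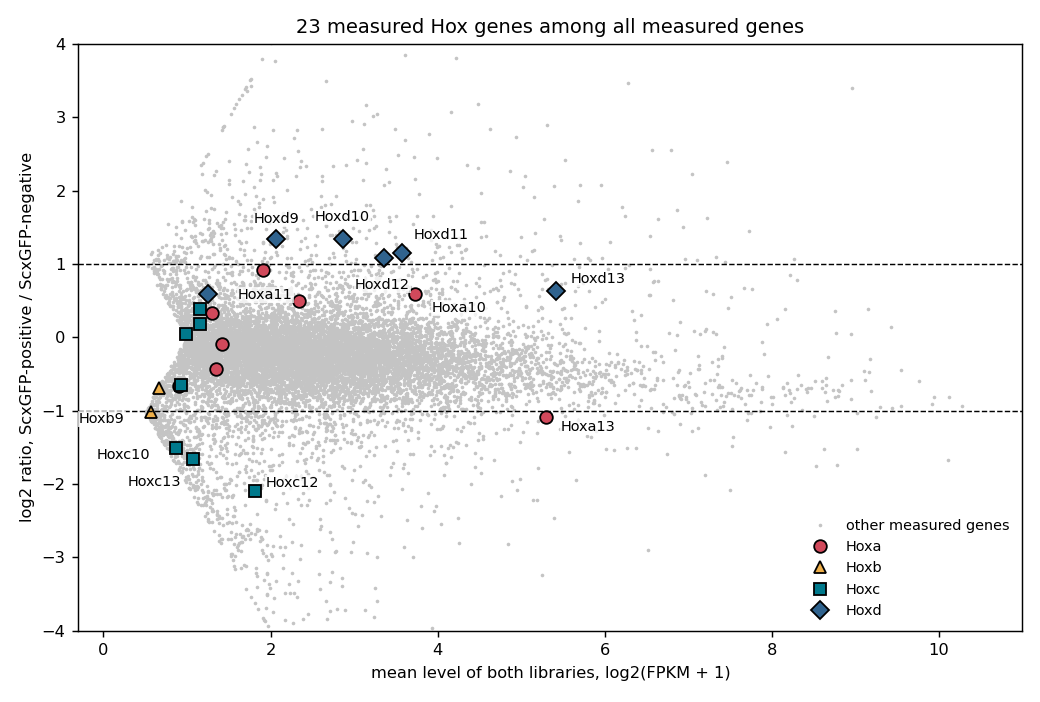
The 23 measured Hox genes (coloured by cluster) among all measured genes (grey), with the mean level of both libraries in log2(FPKM + 1) on the horizontal axis and the log2 ratio of positive over negative cells on the vertical axis. Dashed lines mark 2-fold, and 150 genes lie outside the plotted range. *Hoxd9* to *Hoxd12* lie above the upper line; *Hoxa13*, *Hoxb9* and 3 Hoxc genes lie below the lower one.

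The Hoxa cluster (mm9 chr6:52112510-52210874 from *Hoxa2* to *Hoxa13*) went both ways. *Hoxa13*, which with *Hoxd13* is required for the hand, stood at 26.1 FPKM in ScxGFP-positive cells, against 56.2 FPKM in ScxGFP-negative cells, where it was the most abundant Hox gene. Its log2 ratio was −1.08, and its positive value was 46.4% of the negative one, on about 77926 and 175640 aligned bases. The listed transcript is 1308 bases long, and measured genes under 1500 bases had a median ratio of −0.45, against −0.24 for longer ones. Of 405 genes within 0.5 of its mean log2 level, 6.42% were at least 2-fold lower and the median was −0.40. *Hoxa13* was lower in positive cells under each of the 6 alternatives that could change its side. It was at least 2-fold lower in 1 of them, with the median ratio of limb mesenchyme genes set to 1 (−1.50). It was within 2-fold in the others, at −0.75 with the median ratio of all genes set to 1, −0.80 with equal upper quartiles, −0.66 with TPM, −0.74 with TPM without haemoglobin genes and −0.69 with the length trend removed, and also with a pseudocount of 5 (−0.98).

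The neighbours of *Hoxa13* lay on the other side. *Hoxa11*, the forearm gene, stood at 4.18 FPKM in positive cells, against 1.74 FPKM in negative cells (log2 ratio 0.92). *Hoxa10* stood at 15.4 against 9.81 FPKM (0.60) and *Hoxa9* at 5.03 against 3.29 FPKM (0.49). All 3 were higher in positive cells but under 2-fold on the FPKM + 1 scale as reported. Without the added 1, *Hoxa11* was at 241% of its negative value. *Hoxa11* was at least 2-fold higher in 5 of the 6 alternatives that could change its side, as with the median ratio of all genes set to 1 (1.20). With the median ratio of limb mesenchyme genes set to 1 its ratio was 0.57. *Hoxa10* and *Hoxa9* passed 2-fold in 1 of these 6, TPM (1.08 and 1.01). *Hoxa10* has 2 listed transcripts, and the one with the longer locus, NM_001122950, made up 68.4% of its level in the positive library, against 73.3% in the negative library.

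Along the Hoxa cluster the ratio ran from the negative side to the positive side and turned at the last gene. *Hoxa2*, known from the hindbrain and the second pharyngeal arch, was at 0.496 FPKM in positive cells against 1.36 (log2 ratio −0.66), and *Hoxa3* at 1.20 against 1.96 (−0.43). *Hoxa5* was at 1.59 against 1.75 (−0.09) and *Hoxa6* at 1.76 against 1.19 (0.34). The sign of *Hoxa5* depended on the scaling, with 0.13 when the median ratio of all genes was set to 1. *Hoxa4* and *Hoxa7* did not reach 1 FPKM, at 0.329 against 0.852 and 0.878 against 0.471 FPKM. As a share of the negative value the genes from *Hoxa2* to *Hoxa5* were at 36.5% to 90.6%, those from *Hoxa6* to *Hoxa11* at 148% to 241%, and *Hoxa13* at 46.4%. The locus of *Hoxa3* spans those of *Hoxa4*, *Hoxa5* and *Hoxa6*, so their reads may be divided unevenly.

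Noncoding genes of the Hoxa cluster were also listed. *Hoxa11as* (*Hoxa11os* in RefSeq), transcribed opposite *Hoxa11* and known to be expressed where *Hoxa11* is not, stood at 12.5 FPKM in positive cells, against 23.7 FPKM in negative cells (log2 ratio −0.87). It was thus lower in positive cells while *Hoxa11* was higher. The loci overlap by 525 bases and strand was not recorded, so reads in that overlap cannot be assigned. *5730457N03Rik* (*Evx1os* in RefSeq), beyond *Hoxa13*, was at 0.113 against 1.72 FPKM, and *Evx1*, the homeobox gene next to it, at 0.0934 against 1.07.

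The hairpin of miR-196b, which lies between *Hoxa9* and *Hoxa10*, had 116 FPKM in positive cells and was listed at 0 in negative cells. Members of this family are known to repress *Hoxb8*, whose level here was 0 in positive cells and 0.154 FPKM in negative cells. Neither value of *Hoxb8* reached 1 FPKM, and the negative one rests on about 970 aligned bases. A link between *Hoxb8* and the hairpin was not tested. The mature sequences of the family in RefSeq (GRCm38.p6, chr6:52230129-52230150 on the minus strand for miR-196b and chr11:96265187-96265208 on the plus strand for miR-196a) are shown with the seed, bases 2 to 8, in capitals, since both share it.
miR-196b-5p: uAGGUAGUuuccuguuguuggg
miR-196a-5p: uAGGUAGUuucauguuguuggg

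The 85-base hairpin row rests on about 22579 aligned bases in positive cells, and so short a row gives an unstable FPKM. Of 655 miRNA rows, 149 had a value above 0 in positive cells and 132 did in negative cells. The library type does not measure the mature miRNA. *Mir196a-1*, *Mir196a-2*, *Mir10a*, *Mir10b* and *Mir615*, the other hairpins of the clusters, were listed at 0 in both libraries.

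The posterior genes of the Hoxc cluster (mm9 chr15:102751562-102867283) were lower in ScxGFP-positive cells. *Hoxc12* stood at 0.697 FPKM in positive cells, against 6.25 FPKM in negative cells (log2 ratio −2.10), which ranked 316 from the bottom among 12096 genes. *Hoxc13*, known for its part in hair and nails, stood at 0.178 against 2.73 FPKM (−1.66). *Hoxc10*, known mainly from the hindlimb and lower trunk, stood at 0.0832 against 2.09 FPKM (−1.51). Positive values of these genes were 11.1%, 6.52% and 3.98% of the negative ones, and they rest on little sequence, about 1342, 988 and 364 aligned bases. *Hoxc11* was listed at 0 in positive cells and at 0.556 FPKM in negative cells, and *Hoxc9* was at 0.0899 against 0.246.

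The remaining Hoxc genes, which are expressed at trunk and shoulder level, lay closer together. *Hoxc4* was at 1.01 FPKM in positive cells, against 0.955 FPKM in negative cells, *Hoxc5* at 1.54 against 0.951 and *Hoxc6* at 1.37 against 1.08. Their log2 ratios were 0.04, 0.38 and 0.19. Those of *Hoxc4* and *Hoxc6* turned negative (−0.17 and −0.05) with the median ratio of limb mesenchyme genes set to 1. *Hoxc8*, the next gene, was at 0.523 against 1.38 FPKM (−0.65). The cluster thus held genes at 106% to 162% of the negative value up to group 6 and at 0% to 37.8% from group 8 on.

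The Hoxb cluster (mm9 chr11:96055675-96229567) was at low levels in both libraries. Only *Hoxb7* and *Hoxb9* of its 10 genes were measured, both through negative cells. *Hoxb9* stood at 0.0429 FPKM in positive cells, against 1.11 FPKM in negative cells (log2 ratio −1.01). Its positive value rests on about 265 aligned bases. The ratio was within 2-fold with the median ratio of all genes set to 1 (−0.998), the length trend removed (−0.72) and a pseudocount of 5 (−0.28). *Hoxb7* stood at 0.256 against 1.02 FPKM (−0.68). The highest of the rest in either library was *Hoxb3*, at 0.573 against 0.618 FPKM. *Hoxb2* was at 0.581 against 0.322, *Hoxb4*, known in blood stem cells, at 0.137 against 0.297, *Hoxb5* at 0.302 against 0.398 and *Hoxb6* at 0.329 against 0.407. *Hoxb1* and *Hoxb8* were listed at 0 in positive cells and at 0.0741 and 0.154 FPKM in negative cells, and *Hoxb13* at 0 in both. *Gm53*, a noncoding gene between *Hoxb9* and *Hoxb13*, was at 0.0923 against 1.54 FPKM.

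Read by paralogue number, the clusters split in the posterior groups. In group 13, *Hoxd13* was the larger part in positive cells, 66.6% of the group's FPKM against 36.1% in negative cells, and *Hoxa13* the larger part in negative cells, 33.2% against 61.0%. *Hoxc13* held 0.226% against 2.96%. The level of *Hoxa13* over that of *Hoxd13*, a ratio of FPKM within a library, was 0.498 in positive cells and 1.69 in negative cells. In group 11 the same ratio of *Hoxa11* over *Hoxd11* was 0.250 and 0.247, so those paralogues differed between the libraries by nearly the same factor. In group 10, *Hoxa10* over *Hoxd10* was 1.44 and 2.72, and in group 9, *Hoxa9* over *Hoxd9* was 0.891 and 2.02.

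The level of *Hoxa13* over *Hoxa11* within a library was 6.23 in positive cells and 32.3 in negative cells, and that of *Hoxd13* over *Hoxd11* was 3.13 and 4.73. In both clusters the hand gene was therefore lower against the forearm gene in positive cells than in negative cells. Summed over clusters, group 9 reached 10.8 FPKM in positive cells against 6.27 in negative cells, group 10 reached 26.1 against 15.5 and group 11 reached 20.9 against 9.33. Group 12 was at 14.6 against 12.3 FPKM and group 13 at 78.6 against 92.2. Groups 1 to 3 reached 3.99 against 4.72 FPKM and groups 4 to 8 reached 12.4 against 12.2. None of their measured genes was 2-fold higher or lower on the FPKM + 1 scale. Without the added 1, *Hoxa2* was at 36.5%, *Hoxb7* at 25.2%, *Hoxc8* at 37.8% and *Hoxd8* at 204% of the negative value.

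**Figure D4:**
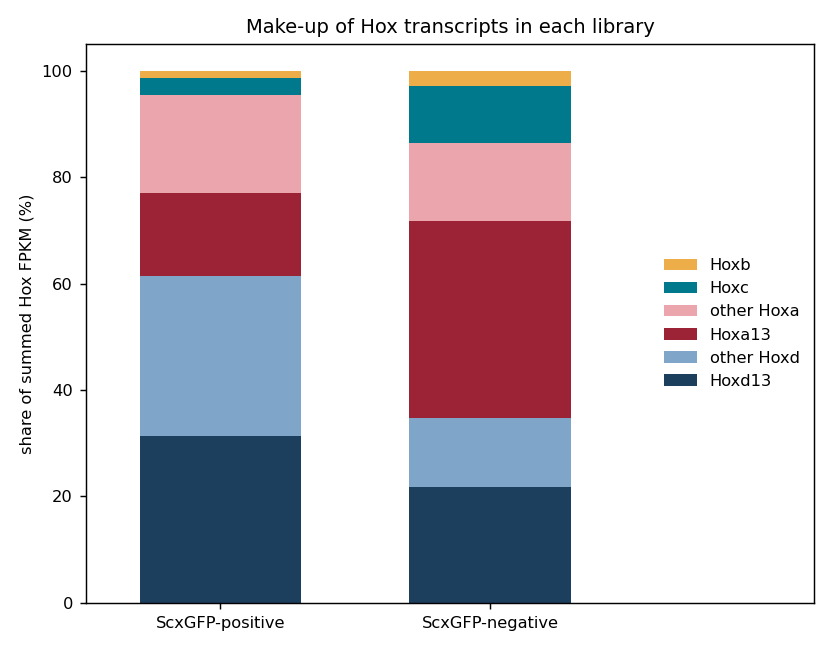
Share of the summed Hox FPKM of each library (vertical axis, percent) held by *Hoxd13*, the other Hoxd genes, *Hoxa13*, the other Hoxa genes, Hoxc and Hoxb, in ScxGFP-positive cells (left bar) and ScxGFP-negative cells (right bar). Hoxd genes make up 61.4% of the left bar and 34.8% of the right bar.

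The sorted populations differed in cell type markers, which could touch any ratio above. *Scx*, whose regulatory sequence drives the sorted reporter, was at 134 FPKM in positive cells, against 1.69 FPKM in negative cells. Of 7 tendon markers, *Scx* among them, 6 were at least 2-fold higher in positive cells (85.7%, beside 4.03% of all measured genes). Summed marker levels in positive cells were 2.43% of those in negative cells for erythroid genes, 2.19% for macrophage and leukocyte genes, 1.33% for mast cell genes, 3.68% for epidermal genes, 6.62% for endothelial genes and 11.3% for Schwann cell genes. None of these lists was higher in positive cells in any measured member, and *Mcpt4* of the mast cell list was the only one of their genes at 0, in positive cells. Skeletal muscle markers were higher in positive cells in 6 of 6 genes, at a sum of 151 against 18.4 FPKM. Of 5 measured cartilage markers, 0 passed 2-fold on the FPKM + 1 scale, and the list summed to 92.6 against 68.9 FPKM. Without the added 1, these 5 ran from 71.2% (*Col9a1*) to 475% (*Matn1*) of the negative value. The part of these cell types in the Hox differences was not tested, and fewer cells of a type and less RNA per cell cannot be told apart in such pools.

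Genes that mark limb mesenchyme as a whole did not share 1 direction. *Pdgfra* was at 44.5 FPKM in positive cells, against 10.6 FPKM in negative cells, *Tbx5*, the forelimb regulator, at 27.4 against 15.9 and *Prrx1* at 37.8 against 27.8. *Twist1* was at 32.3 against 32.2 FPKM and *Prrx2* at 12.1 against 22.0. Genes of distal mesenchyme, where the group 13 genes are expressed, were lower in positive cells. Of these, 9 of 10 passed 2-fold (90%, beside 9.98% lower among all measured genes). Their median log2 ratio was −1.68, beside −0.27 for all measured genes. *Msx2* stood at 2.003 against 19.8 FPKM and *Dlx5* at 4.71 against 33.5; several of these genes are also expressed in ectoderm. *Hoxa13* thus lay on the side of this list and *Hoxd13* did not.

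Partners of Hox proteins included a gene past 2-fold on each side. The TALE homeodomain factors (Meis, Pbx and Pknox) bind DNA together with Hox proteins, and of 8 measured 1 was at least 2-fold higher and 1 lower (12.5% each, beside 4.03% and 9.98% of all measured genes), with a median log2 ratio of −0.28 beside −0.27 for all genes. *Pknox2* stood at 2.05 FPKM in positive cells, against 0.308 FPKM in negative cells, and *Meis2*, a gene of proximal limb, at 1.79 against 4.997 FPKM. *Meis1* was at 1.96 against 3.20 FPKM (−0.50). Of 20 listed regulators of the clusters, among them Polycomb and Trithorax genes, 15 were measured and 0 passed 2-fold, with a median of −0.30 that is close to that of all genes. Their extremes were *Suz12*, a subunit of Polycomb repressive complex 2, at 8.12 against 13.8 FPKM and *Kmt2a*, which encodes a histone H3 methyltransferase that maintains Hox expression, at 12.9 against 10.7. *Shh*, the posterior limb signal, was at 0.0121 against 0.0222 FPKM.

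Of the genes that act with or after Hox genes in the limb, 16 were measured. At least 2-fold higher were 6 (37.5%, beside 4.03% of all measured genes) and lower were 2 (12.5%, near the 9.98% of all measured genes), with a median log2 ratio of 0.52. *Epha3*, which encodes an ephrin receptor, stood at 4.83 FPKM in positive cells, against 0.367 FPKM in negative cells, and *Shox2*, a regulator of the upper arm, at 20.1 against 3.97. *Epha4* was at 16.6 against 5.51 and *Epha7*, an ephrin receptor gene regulated by *Hoxa13* in mouse limbs, at 9.80 against 3.11. On the other side, *Runx2*, the bone regulator, was at 4.16 against 12.2 FPKM and *Alx4* at 1.30 against 3.84.

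**Figure D5:**
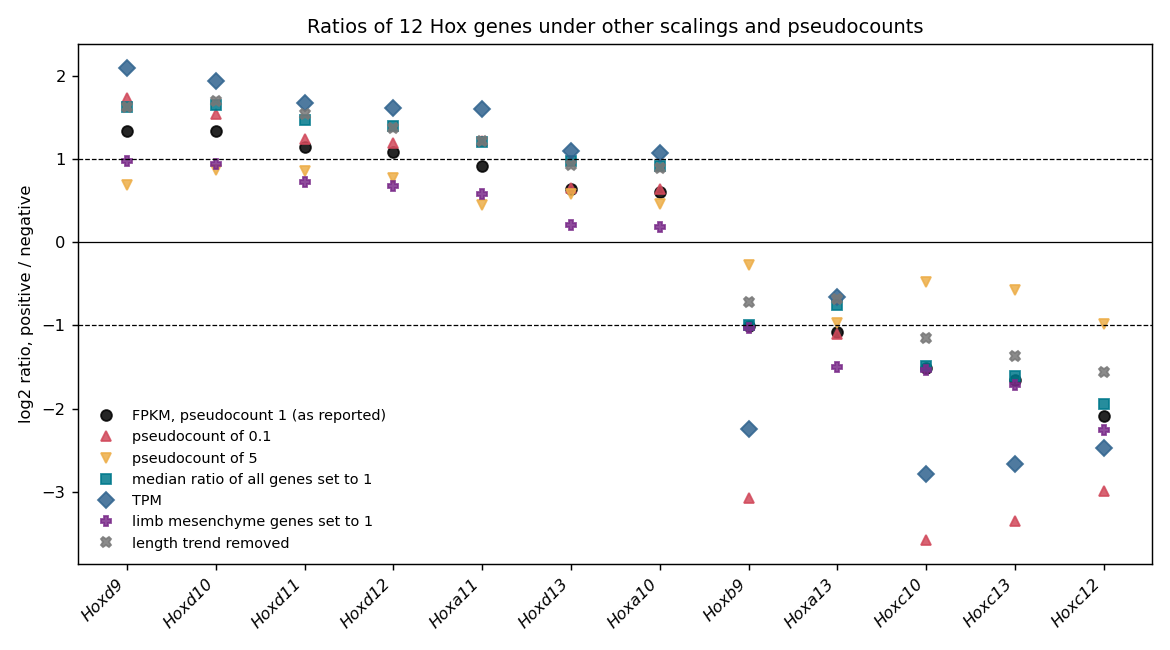
The log2 ratio of positive over negative cells of 12 Hox genes (horizontal axis) as reported and under 6 other treatments of the values (symbols). Dashed lines mark 2-fold. Every gene stays on its side of 0 under the 4 treatments plotted that could change it (the others change the pseudocount). *Hoxd9* to *Hoxd12* drop below the upper line with a pseudocount of 5 and with the median ratio of limb mesenchyme genes set to 1. *Hoxa13* and *Hoxb9* move above the lower line with the median ratio of all genes set to 1 and with the length trend removed. *Hoxa13* also does so with TPM. With a pseudocount of 5 no gene lies beyond either line.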

How the data were processed

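RNA of sorted cells of mouse forelimbs was amplified with the NuGEN Ovation RNA-Seq v2 kit, per the labels' protocols. The submitters' processing notes name TopHat 1.4.1, Bowtie 0.12.7 and build mm9; the version of the abundance program was not given in the sources used here. The authors' deposited tables, per the file headers, list RefSeq transcripts with length, coverage, FPKM and status. The deposited FPKM is per kilobase of transcript and scaled to mapped fragments, and the deposited coverage signal is the mean depth over a transcript. Each file held 28107 rows. All 39 Hox genes (41 rows) had status OK; rows of other genes had failed, 5 of the positive and 6 of the negative library, and these genes were left out.

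FPKM was summed per symbol with pandas 2.3.3, and a pseudocount of 1, a minimum of 1 FPKM in either library and a threshold of 2-fold were used. Aligned bases are coverage times length, in total 0.687 gigabases for positive cells and 0.875 for negative cells. Read counts are unknown, so no interval is given. With 1 library a group, no test was run. Positions in the files count from 0 and were raised by 1; those of sequences are GRCm38.p6, another build. The calculation was tested on simulated data. Members were described by name, except 1 that is not reported here, and of other lists the members with the largest differences and some of known role. The members and lists were chosen with earlier results of these data known.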

Additional observations from a re-analysis of the deposited data

How the results depend on the processing

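Of 12 alternatives for the ratio of a gene, 6 cannot move it across 0 where a gene has a single row (other filters, pseudocounts and row choices). Under the other 6, scalings and the length trend, 20 of the 23 measured Hox genes stayed on their side of 0, and *Hoxa5*, *Hoxc4* and *Hoxc6*, all within 2-fold as reported, did not. No gene past 2-fold changed side. The count of higher genes, 4 of 23 as reported, was 0 of 23 with a pseudocount of 5. It was 0 of 22 with the median ratio of limb mesenchyme genes set to 1, 11 of 35 with TPM, 8 of 35 with TPM without haemoglobin genes and 8 of 23 at 1.5-fold. In the same order, 4.03%, 1.84%, 2.59%, 10.6%, 9.71% and 7.60% of all measured genes were higher. The count of lower genes, 5 of 23 as reported, was 8 of 23 and 0 of 23 with pseudocounts of 0.1 and 5. It was 2 of 9 with a minimum of 5 FPKM and 3 of 25 with the median ratio of all genes set to 1. At 1.5-fold it was 8 of 23, and 3 of 23 with the length trend removed, an alternative added after the data were seen. In the same order, 9.98%, 14.7%, 3.26%, 10.6%, 7.59%, 23.7% and 6.45% of all measured genes were lower. The median of all genes, −0.27 as reported, became 0.0093 when their median ratio was set to 1 and 0.12 in TPM. It became −0.61 when the median ratio of limb mesenchyme genes was set to 1.

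The Hoxb median, −0.85 over 2 genes as reported, was −2.36 and −0.24 with pseudocounts of 0.1 and 5, −0.10 without the filter, 0.030 with TPM and −0.022 with TPM without haemoglobin genes. The Hoxc median of −0.65 was −1.25 at a pseudocount of 0.1. At a minimum of 5 FPKM only *Hoxc12* was left of the Hoxc cluster, with its ratio of −2.10. That of groups 12 and 13, −1.08 as reported, was −0.22 with that minimum, and that of groups 1 to 3, −0.55, was 0.55 with TPM and 0.51 with TPM without haemoglobin genes, where more genes count as measured. Low genes limit the report: 16 of the 39 were under 1 FPKM in both libraries. No paired analysis was possible because each group has 1 library.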
